A study of Mus musculus with 4 samples.

Results

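De novo lipogenesis is the making of fatty acids from sugar carbon, and 10 genes of the pathway were followed in the brown fat of ATF4-deficient mice. The genes were taken by symbol as Slc25a1, Acly, Acaca, Acacb, Fasn, Me1, Dgat2, Thrsp, Srebf1 and Mlxipl, 10 of the 52022 genes to which the deposited transcripts could be assigned. All 10 passed the filter on low counts that left 15643 genes for testing. The knockout (KO) group held 2 RNA-seq libraries, KO 1 and KO 2, from male mice lacking ATF4, a stress-responsive transcription factor, in thermogenic adipocytes, and the wild-type (WT) group held 2, WT 1 and WT 2, from male counterparts. Both groups had eaten a 60% fat diet over 12 weeks, with ad libitum feeding. The sources used here do not give the age of the mice, the Cre line or other means of deletion, or whether each library was 1 animal. The library names begin with S2 in KO 2 and WT 1 and with S1 in KO 1 and WT 2. What this prefix stands for is not given either. Each one is shared by 1 KO and 1 WT library, and KO was compared with WT and S2 with S1.

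In this pathway citrate leaves the mitochondrion, is split to acetyl-CoA in the cytosol, is carboxylated to malonyl-CoA and is built into palmitate with reducing power from NADPH. Transcription of the enzymes is driven mainly by SREBP-1, which responds to insulin, and by ChREBP, which responds to sugar metabolites. Brown fat runs lipogenesis and fat burning side by side, and dietary fat is known to lower lipogenic enzymes.

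The Mlxipl gene, which encodes ChREBP, has RefSeq promoters at an upstream and a downstream start, and transcripts from them were read separately below, so the bases before each are shown first. They are followed by the bases before the RefSeq start of Fasn, which makes palmitate. It is the start of the coding transcript Fasn-201. Fasn-205, a coding transcript with more counts than Fasn-201 in all libraries but KO 1, begins downstream of it, at 120824095. The 3 runs are the 250 bases before each start from RefSeq on GRCm38.p6, 5′ to 3′ on the gene's strand, at chr5:135089640-135089889 and chr5:135106641-135106890 (both plus strand) and chr11:120824548-120824797 (minus strand). Capitals mark matches on either strand to CACGTG (the E-box that ChREBP and USF proteins recognise), TCACNCCAC (a form of the sterol regulatory element) or CCAAT (the box bound by NF-Y).
Mlxipl, upstream start: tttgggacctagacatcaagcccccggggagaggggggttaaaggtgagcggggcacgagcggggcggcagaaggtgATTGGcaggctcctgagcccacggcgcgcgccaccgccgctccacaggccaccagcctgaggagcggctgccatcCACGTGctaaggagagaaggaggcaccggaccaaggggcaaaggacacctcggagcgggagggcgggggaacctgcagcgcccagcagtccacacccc
Mlxipl, downstream start: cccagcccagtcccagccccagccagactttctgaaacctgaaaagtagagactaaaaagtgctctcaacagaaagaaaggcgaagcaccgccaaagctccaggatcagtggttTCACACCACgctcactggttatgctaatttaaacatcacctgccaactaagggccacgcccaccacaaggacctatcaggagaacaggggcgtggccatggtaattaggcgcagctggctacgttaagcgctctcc
Fasn: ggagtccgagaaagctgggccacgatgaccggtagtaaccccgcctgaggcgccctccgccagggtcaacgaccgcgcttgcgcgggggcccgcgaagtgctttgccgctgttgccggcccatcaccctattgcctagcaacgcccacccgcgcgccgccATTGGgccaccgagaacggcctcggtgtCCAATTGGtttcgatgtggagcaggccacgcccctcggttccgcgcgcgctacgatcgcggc
The upstream Mlxipl run holds CACGTG 98 bases before the start and CCAAT, on the opposite strand, 173 bases before it. The downstream run holds TCACNCCAC 136 bases before its start. In the Fasn run CCAAT begins 90, 62 and 59 bases before the start, the last 2 matches overlapping each other on opposite strands. RefSeq promoters were at hand for 9 of the 10 genes, 13 in all, and 2 of the 13 held CACGTG, 1 held TCACNCCAC and 8 held CCAAT. Among all 32851 promoters of that table, 6.02%, 1.05% and 33.8% held these motifs in the same window. TGATGNAAT, a form of the core of the element that ATF4 binds with C/EBP proteins, was in 0 of the 13 and in 0.816% of all. Other forms of it were not searched for. Such matches describe letters and do not show binding.

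The libraries held 25985367 estimated counts in KO 1, 30405113 in KO 2, 32714456 in WT 1 and 34813870 in WT 2. Atf4 itself was at 24.97 and 24.5 CPM in KO 1 and KO 2, against 29.2 and 107 in WT 1 and WT 2, so the library labelled WT 1 was close to the KO level, and WT 1 below means the library so labelled. CPM is counts scaled to a total of 1e6 after TMM scaling. All 8 brown fat markers were measured and summed to 10134 and 8491 CPM in KO 1 and KO 2, against 8157 and 8855 CPM in WT 1 and WT 2. The 10 skeletal muscle markers summed to 2801 and 2627 CPM in KO 1 and KO 2 and to 1.75 and 1.61 CPM in WT 1 and WT 2, with Myh4 at 0 in both WT libraries. Library KO 1 stood apart in several measures. Genes of mitochondrial DNA took 38.4% of its counts, against 32.2 to 33.3% in the other 3. Its 8 macrophage markers summed to 96.2 CPM, against 268 in KO 2, 341 in WT 1 and 259.9 in WT 2, and none was at 0. Its 5 endothelial markers summed to 1139.8 CPM, against 678 in KO 2, 606 in WT 1 and 886 in WT 2. White fat markers, by contrast, were low in both KO libraries. The 6 measured of 7 summed to 92.1 and 164 CPM in KO 1 and KO 2, against 393 and 289.6 CPM in WT 1 and WT 2. Of the 10 lipogenesis genes 7 were lowest in KO 1, against 35.0% of all genes tested. Every fold change below is log2 KO over WT, or log2 S2 over S1, from the edgeR quasi-likelihood test, with its standard error (SE) and a Benjamini-Hochberg adjusted p over all genes tested, and the threshold was 0.05.

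The enzymes that carry carbon from citrate to palmitate were lowest in KO 1 and highest in KO 2, so the widest gap lay inside the KO group. Slc25a1 (ENSMUSG00000003528, chromosome 16, 17925223 to 17928219), the citrate carrier of the inner mitochondrial membrane, was at 148 and 393 CPM in KO 1 and KO 2, against 244 and 200 CPM in WT 1 and WT 2. Acly (ENSMUSG00000020917, chromosome 11, 100476353 to 100528000), which splits citrate to acetyl-CoA, was at 279 and 1722 CPM in KO 1 and KO 2, against 1295 and 866 CPM in WT 1 and WT 2. For both genes the KO libraries lay on either side of both WT libraries. KO 2 held 6.18 times the Acly level of KO 1.

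Acaca (ENSMUSG00000020532, chromosome 11, 84129672 to 84401651) encodes acetyl-CoA carboxylase 1, the cytosolic enzyme that makes malonyl-CoA for synthesis, and was at 359.7 and 1583 CPM in KO 1 and KO 2, against 1394 and 769 CPM in WT 1 and WT 2. Fasn (ENSMUSG00000025153, chromosome 11, 120805846 to 120824547), fatty acid synthase, was at 2311 and 13378 CPM in KO 1 and KO 2, against 9370.3 and 5079.8 CPM in WT 1 and WT 2. Me1 (ENSMUSG00000032418, chromosome 9, 86581371 to 86695953), the cytosolic malic enzyme that supplies NADPH, was at 128 and 343 CPM in KO 1 and KO 2, against 253 and 207 CPM in WT 1 and WT 2. These 3 genes showed the same order of libraries as Acly, with KO 1 lowest, then WT 2, WT 1 and KO 2, and Slc25a1 did too.

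In counts over the whole gene, Acacb varied less than Acaca. Acacb (ENSMUSG00000042010, chromosome 5, 114146535 to 114250761) encodes acetyl-CoA carboxylase 2, whose malonyl-CoA at the mitochondrial surface restrains fatty acid oxidation, and was at 745 and 983 CPM in KO 1 and KO 2, against 748 and 1070.2 CPM in WT 1 and WT 2. Its highest library was 1.44 times its lowest, against 4.40 times for Acaca, but that contrast was smaller over protein-coding transcripts. Per length, in TPM (transcript abundance scaled to a total of 1e6 after division by effective length), coding Acacb was at 18.8 and 62.8 TPM in KO 1 and KO 2, against 41.9 and 61.4 TPM in WT 1 and WT 2. It was lowest in KO 1, as Acaca was, and KO 2 held 3.34 times the coding Acacb and 5.04 times the coding Acaca of KO 1. Most of the rest of Acacb was Acacb-204, annotated as a retained intron, at 75.0 and 69.9 TPM in KO 1 and KO 2, against 57.8 and 94.3 TPM in WT 1 and WT 2. Dgat2 (ENSMUSG00000030747, chromosome 7, 99153658 to 99182719), which adds the last fatty acid to make triglyceride, was at 2334 and 1688 CPM in KO 1 and KO 2, against 1936 and 2268 CPM in WT 1 and WT 2. It was highest in KO 1, the library in which the palmitate-making enzymes were lowest.

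The 3 regulators spanned a smaller range than Slc25a1, Acly, Acaca, Fasn and Me1. Thrsp (ENSMUSG00000035686, chromosome 7, 97412938 to 97417730), or Spot 14, a nuclear and cytosolic protein raised by thyroid hormone and carbohydrate, was at 939 and 1252 CPM in KO 1 and KO 2, against 1303 and 1161 CPM in WT 1 and WT 2. Srebf1 (ENSMUSG00000020538, chromosome 11, 60199089 to 60222581), the gene of SREBP-1, was at 237 and 142 CPM in KO 1 and KO 2, against 241 and 283 CPM in WT 1 and WT 2. Mlxipl (ENSMUSG00000005373, chromosome 5, 135089890 to 135138382) was at 319 and 324 CPM in KO 1 and KO 2, against 254 and 349 CPM in WT 1 and WT 2. Of the 10 genes, Srebf1 was the 1 whose KO libraries both lay below both WT libraries in CPM, and in it the lower KO library was KO 2. KO 1 was just under WT 1 there, and in TPM Srebf1 overlapped, at 70.6 and 46.7 TPM in KO 1 and KO 2, against 66.8 and 88.3 TPM in WT 1 and WT 2. Groups that do not overlap were found in 26.3% of all genes tested, 13.2% with KO higher and 13.1% with KO lower. In 8 of the 10 the difference between KO and WT had opposite signs within S1 and within S2, against 48.1% of all genes tested. The 8 include small differences, as for Dgat2 at 0.04 within S1 and -0.20 within S2 in log2 CPM.

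**Figure D1:**
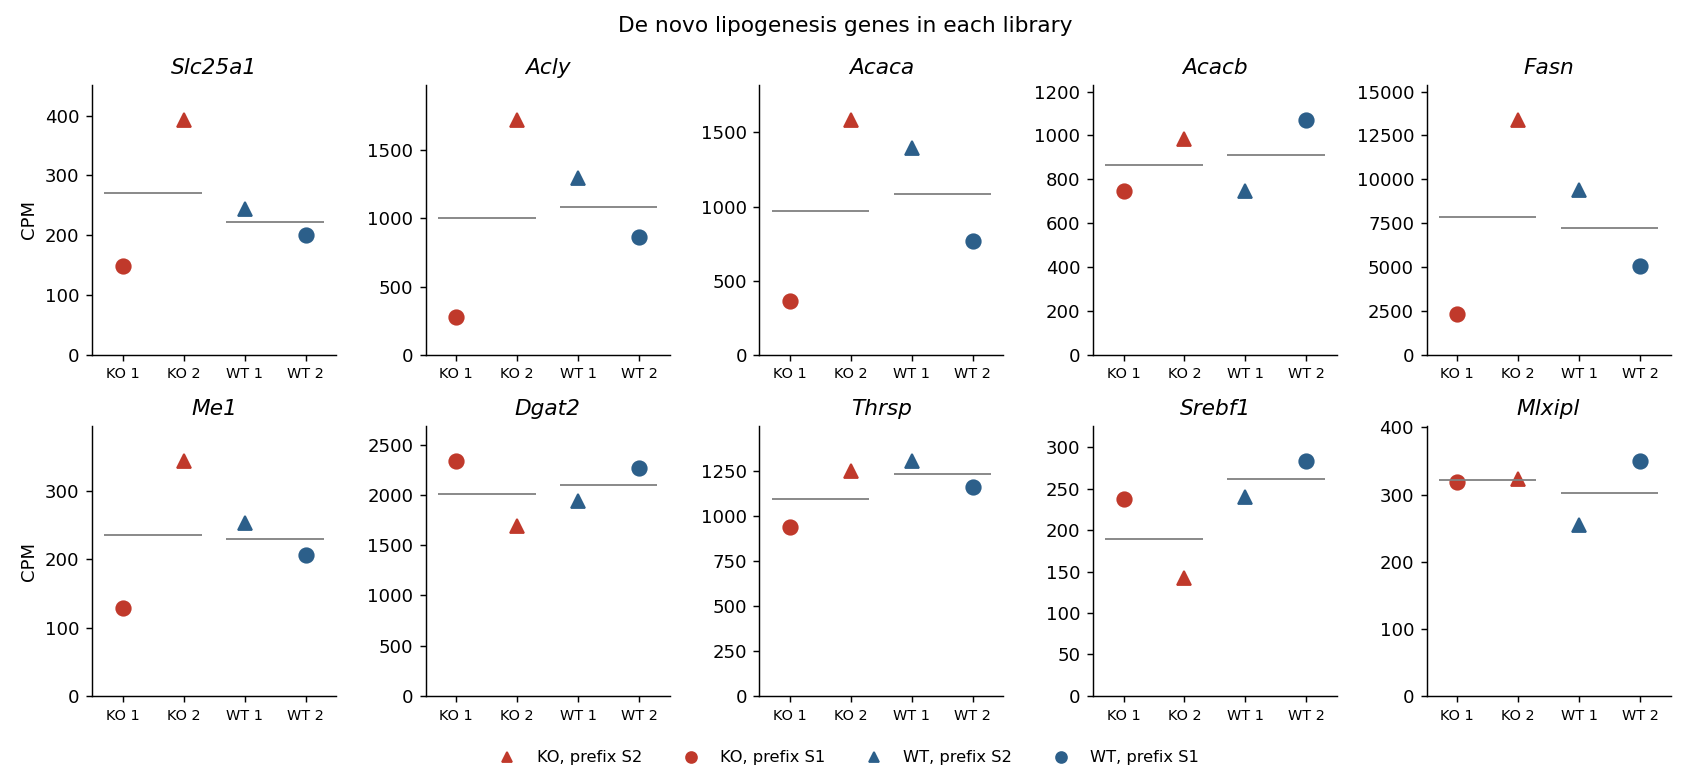
CPM of each of the 10 genes in each library, with KO libraries in red and WT libraries in blue, triangles for prefix S2, circles for prefix S1 and grey lines for the group means. For Slc25a1, Acly, Acaca, Fasn and Me1 the lowest point is KO 1 and the highest is KO 2, on either side of both WT points.

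Between KO and WT, 0 of the 10 genes passed, where 0.780% of all genes tested did. No member reached an unadjusted p under 0.05 either, against 4.02% of all genes, and DESeq2 and limma-voom also called 0 of the 10. The smallest unadjusted p was that of Srebf1, which averaged 189.6 ± 67.4 CPM in KO and 261.8 ± 30.2 CPM in WT (SD, n = 2 each). Its log2 fold change was -0.47 (SE 0.29, edgeR adjusted p = 0.9998). Fasn averaged 7844 ± 7825 CPM in KO and 7225 ± 3034 CPM in WT (SD, n = 2 each), and its log2 fold change of 0.12 had an SE of 0.80. Acly had a log2 fold change of -0.11 (SE 0.78) and Acaca one of -0.15 (SE 0.69). For these 3 genes the SE exceeded the fold change several times over. Over all 10 the log2 fold changes ran from -0.47 for Srebf1 to 0.28 for Slc25a1 with a median of -0.07, beside a median of 0.00 over all genes tested.

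The direction of most of these differences turned with the library left out. The median over the 10 was 0.33 without KO 1 and -0.49 without KO 2. Fasn had a log2 fold change of 0.89 without KO 1 and -1.65 without KO 2, and Acly 0.67 without KO 1 and -1.96 without KO 2, with adjusted p from 0.183 to 1.00 for the 2 genes over the 4 libraries left out in turn. Srebf1 kept its negative sign in all 4, between -0.88 without KO 1 and -0.14 without KO 2. Without the library labelled WT 1, the median over the 10 was 0.05 and the log2 fold change of Srebf1 was -0.58. With the library name prefix as a block, 0 of the 10 passed as well, where 2.05% of all genes did, and Srebf1 had a log2 fold change of -0.51 (SE 0.19, edgeR adjusted p = 0.368).

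The larger difference lay between the library name prefixes. Fasn was at 13378 and 9370.3 CPM in the S2 libraries KO 2 and WT 1, against 2311 and 5079.8 CPM in the S1 libraries KO 1 and WT 2, a log2 fold change of 1.62 (SE 0.41, edgeR adjusted p = 0.277). Acaca had a log2 fold change of 1.40 (SE 0.37, edgeR adjusted p = 0.278) and Acly one of 1.40 (SE 0.54, edgeR adjusted p = 0.322). The log2 fold change was 0.87 (SE 0.28) for Slc25a1, 0.83 (SE 0.28) for Me1 and 0.28 (SE 0.15) for Thrsp. All 6 had both S2 libraries above both S1 libraries. Dgat2 went the other way, at 1688 and 1936 CPM in KO 2 and WT 1, against 2334 and 2268 CPM in KO 1 and WT 2, a log2 fold change of -0.34 (SE 0.13, edgeR adjusted p = 0.31). The prefixes thus did not overlap for 7 of the 10 genes, beside 53.2% of all genes tested. Of the 7, 6 were higher and 1 was lower in S2, against 27.3% and 25.9% of all genes. Acacb, Srebf1 and Mlxipl overlapped, with log2 fold changes of -0.07 (SE 0.23), -0.44 (SE 0.28) and -0.21 (SE 0.16).

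Between S2 and S1, 0 of the 10 passed with edgeR, as against 0.00639% of all genes, and 6 had an unadjusted p under 0.05, against 15.5% of all genes. DESeq2 called 1 of the 10, Slc25a1, where it called 548 of 15643 genes. Limma-voom called 0 of the 10 and 0 of all genes. The median over the 10 was 0.56, beside -0.01 over all genes, and it was 0.33 without KO 1 and 0.77 without WT 2. With genotype as a block, Fasn (1.71, SE 0.39, edgeR adjusted p = 0.0445) and Acaca (1.50, SE 0.30, edgeR adjusted p = 0.0286) rose in S2, 2 of the 10 where 3.14% of all genes passed in either direction. That fit leaves 1 residual degree of freedom, so its p-values lean on the variation of other genes. With no filter on low counts 5 of the 10 passed, namely Fasn, Acaca, Acly, Me1 and Slc25a1, where 823 of 26873 genes did.

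Within each genotype the prefix difference had the same sign for these enzymes but not the same size. The difference in log2 CPM, S2 minus S1, was 2.53 in KO and 0.88 in WT for Fasn, 2.14 in KO and 0.86 in WT for Acaca, and 2.63 in KO and 0.58 in WT for Acly. It was 1.42 in KO and 0.29 in WT for Me1, and 1.40 in KO and 0.29 in WT for Slc25a1. Leaving out KO 1 brought the log2 fold change of Fasn to 1.16 and that of Acly to 0.80, against 2.30 and 2.44 without WT 2. It brought Me1 to 0.53 and Thrsp to 0.14, and leaving out KO 2 brought Slc25a1 to 0.48. Fasn was the highest of the 10 with all libraries, while Acly was higher without WT 2, and on log2(TPM + 1) Acaca (1.52) and Acly (1.31) were above Fasn (1.20). Whether KO and WT differ in the prefix difference cannot be tested with 1 library in each combination.

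**Figure D2:**
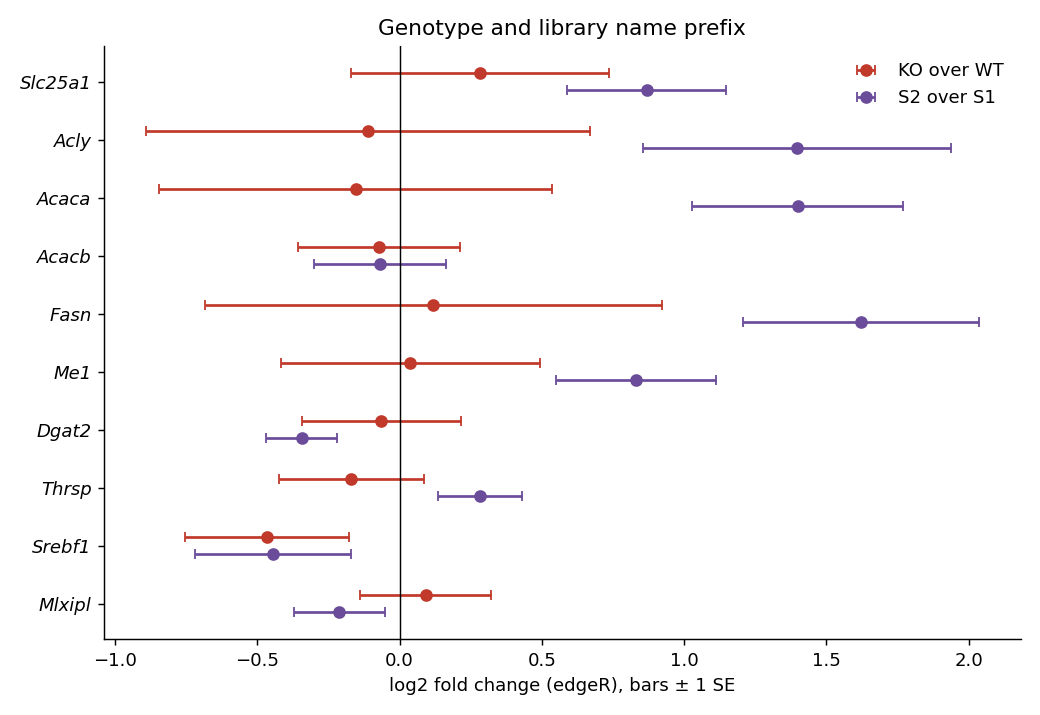
Log2 fold changes of the 10 genes from edgeR, KO over WT in red and S2 over S1 in purple, with bars of ± 1 SE. The genotype values lie between -0.47 and 0.28, and the prefix values of Fasn, Acaca and Acly are the 3 highest, from 1.40 to 1.62.

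Several measures moved with the prefix or with KO 1 beside these genes. Transcript length was a gene's mean weighted by TPM, which placed Fasn at 3010 bases. Its coding transcripts Fasn-205 and Fasn-201 have 8333 and 10050 bases. In KO 1, log2 CPM relative to the mean of the other 3 libraries had a median of 0.43 for genes of up to 500 bases. For genes over 8000 bases the median was -0.20. The corresponding values in KO 1 were -2.16 for Acly, -1.90 for Fasn, -1.73 for Acaca, -1.03 for Me1 and -0.85 for Slc25a1. The spread of single genes within a length class was not measured, and the part of length in these values was not tested. Slc25a1 and Thrsp, at -0.40, have transcripts of 1000 to 2000 bases, a class with a median of 0.03. Markers shared by all adipocytes (8 of 8 measured) summed to 12119 and 10922 CPM in KO 1 and KO 2, against 11943 and 11779 CPM in WT 1 and WT 2, and had a median log2 fold change of 0.10 between S2 and S1. All 8 macrophage markers were lowest in KO 1, with a median of 0.81 between S2 and S1. In log2 CPM their median of S2 minus S1 was 1.57 within KO and 0.05 within WT. All 5 endothelial markers were lower in S2, with a median of -0.67. Their median of S2 minus S1 in log2 CPM was -0.71 within KO and -0.53 within WT. The part of macrophages and endothelium in the lipogenesis values was not tested, and in whole tissue fewer cells of a type and less RNA per cell cannot be told apart. With the skeletal muscle markers left out before scaling, the median of the 10 genes was 0.56 between S2 and S1 and -0.07 between KO and WT.

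**Figure D3:**
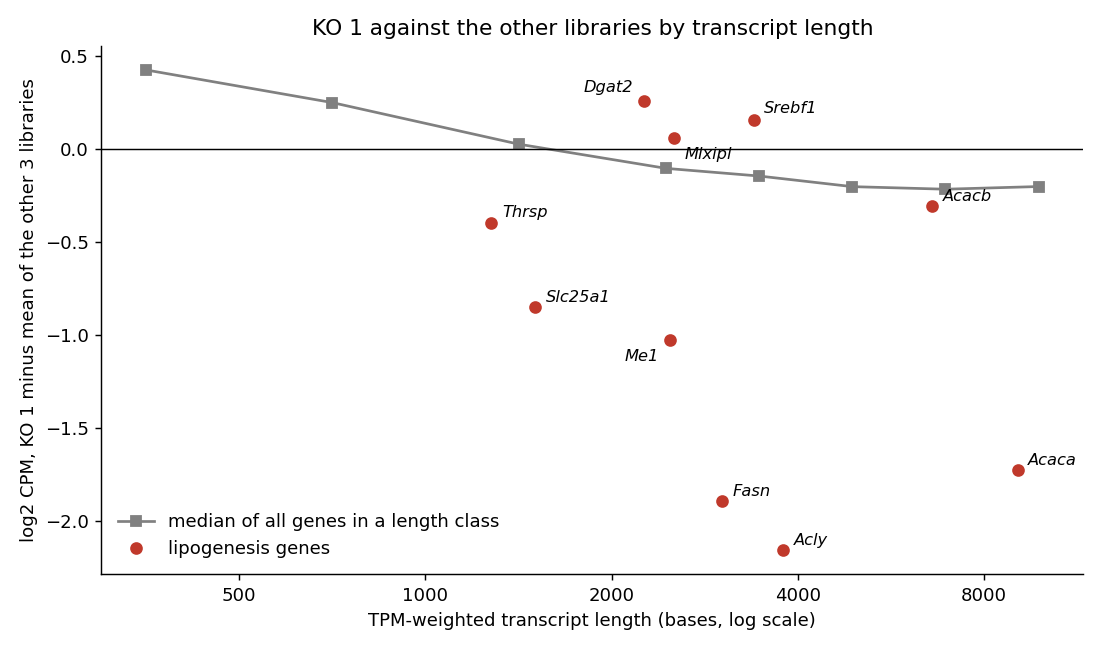
Log2 CPM of KO 1 minus the mean of the other 3 libraries against TPM-weighted mean transcript length in bases on a log axis. The 10 genes are red. Grey squares give the median in each of 8 length classes over all genes with a mean log2 CPM of at least 3. The grey medians fall by less than 1 log2 unit over the whole range. Acly, Fasn, Acaca and Me1 lie below -1, and the spread of single genes within a class is not shown.

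In TPM, Fasn had the highest mean level over the 4 libraries, 2619 TPM (range 1008 to 4281). It was followed by Thrsp at 1044 TPM (754 to 1162) and Dgat2 at 961 TPM (808 to 1145), and these 3 ranges overlapped. Acly came next at 284 TPM (81.8 to 442), with no overlap with Dgat2. Slc25a1 averaged 184 TPM, Acacb 135, Mlxipl 130, Acaca 113, Me1 99.3 and Srebf1 68.1 TPM, each overlapping its neighbours in this order. For Fasn most of the TPM sum came from Fasn-202 and Fasn-203, annotated as retained introns and only 762 and 976 bases long. In estimated counts the longer coding Fasn-205 and Fasn-201 held more, at 14994 and 26512 in KO 1 and 246663 and 86530 in KO 2. Fasn-202 and Fasn-203 had 5216 and 12398 counts in KO 1 and 28965 and 28081 in KO 2. Fasn-202 was at 313.5 and 1737 TPM in KO 1 and KO 2, against 1095 and 897 TPM in WT 1 and WT 2. Its protein-coding transcripts held 15.3% and 30.9% of its TPM in KO 1 and KO 2, against 31.4% and 20.0% in WT 1 and WT 2. Counted over protein-coding transcripts alone, Fasn was at 155 and 1322 TPM in KO 1 and KO 2, against 904 and 461 TPM in WT 1 and WT 2. The coding share of Acacb was 16.7% and 43.1% in KO 1 and KO 2, against 39.6% and 35.2% in WT 1 and WT 2. Over all genes, retained-intron transcripts took 4.19% and 3.92% of TPM in KO 1 and KO 2, against 3.74% and 4.31% in WT 1 and WT 2. kallisto divides reads that transcripts share, so values of single transcripts are estimates.

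The level of the whole Mlxipl gene hid transcripts that differed in pattern. Of its 10 transcripts, Mlxipl-201 (ENSMUST00000005507), the full-length coding one from the downstream start, was at 33.2 and 37.0 TPM in KO 1 and KO 2, against 28.4 and 35.7 TPM in WT 1 and WT 2. Mlxipl-210 (ENSMUST00000202431), which begins 17028 bases upstream of it, was at 0.236 and 2.62 TPM in KO 1 and KO 2, against 3.90 and 2.69 TPM in WT 1 and WT 2. It is annotated as a processed transcript of 412 bases in 4 exons and was the 1 Mlxipl transcript here from the upstream start. Its estimated counts were 1.49 in KO 1, 16.6 in KO 2, 27.1 in WT 1 and 20.3 in WT 2. The low library was KO 1, as for Fasn and Acly, but at counts this small the difference within KO rests on few reads. As background, ChREBP-beta, a short and potent ChREBP form, is known to be made from an upstream first exon that ChREBP itself activates, and the annotation used here does not name the product of Mlxipl-210. Of the remaining transcripts, Mlxipl-206, annotated for nonsense-mediated decay, was at 18.9 and 24.1 TPM in KO 1 and KO 2, against 17.8 and 34.6 TPM in WT 1 and WT 2. Mlxipl-208, a short coding transcript from within the gene, was at 17.3 and 28.8 TPM in KO 1 and KO 2, against 22.8 and 34.7 TPM in WT 1 and WT 2, and Mlxipl-209 was at 0 in all 4.

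Srebf1 also divided by transcript. Srebf1-201 (ENSMUST00000020846), the most abundant of 12, was at 31.4 and 20.1 TPM in KO 1 and KO 2, against 43.1 and 46.9 TPM in WT 1 and WT 2, so both KO libraries lay below both WT libraries. Srebf1-207 (ENSMUST00000144942), a coding transcript that begins 10139 bases downstream of it, was at 0.689 and 6.63 TPM in KO 1 and KO 2, against 6.57 and 3.89 TPM in WT 1 and WT 2. Its estimated counts were 60.7 in KO 1, 584.5 in KO 2, 638.7 in WT 1 and 411 in WT 2. Here the order of libraries had KO 1 lowest and the S2 libraries above the S1 libraries. Srebf1-203, whose first exon lies 13416 bases downstream of the start of Srebf1-201, was at 16.9 and 8.29 TPM in KO 1 and KO 2, against 8.17 and 21.4 TPM in WT 1 and WT 2, with both S2 libraries below both S1 libraries. Srebf1-206, a short non-coding fragment, was at 10.9 and 1.11 TPM in KO 1 and KO 2, against 5.72 and 8.95 TPM in WT 1 and WT 2. In all, 3 of the 12 were at 0 in all libraries, among them Srebf1-204, the 1 from the start farthest upstream. SREBP-1a and SREBP-1c are known to differ in their first exon, and the annotation used here does not say which of these transcripts encodes either.

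**Figure D4:**
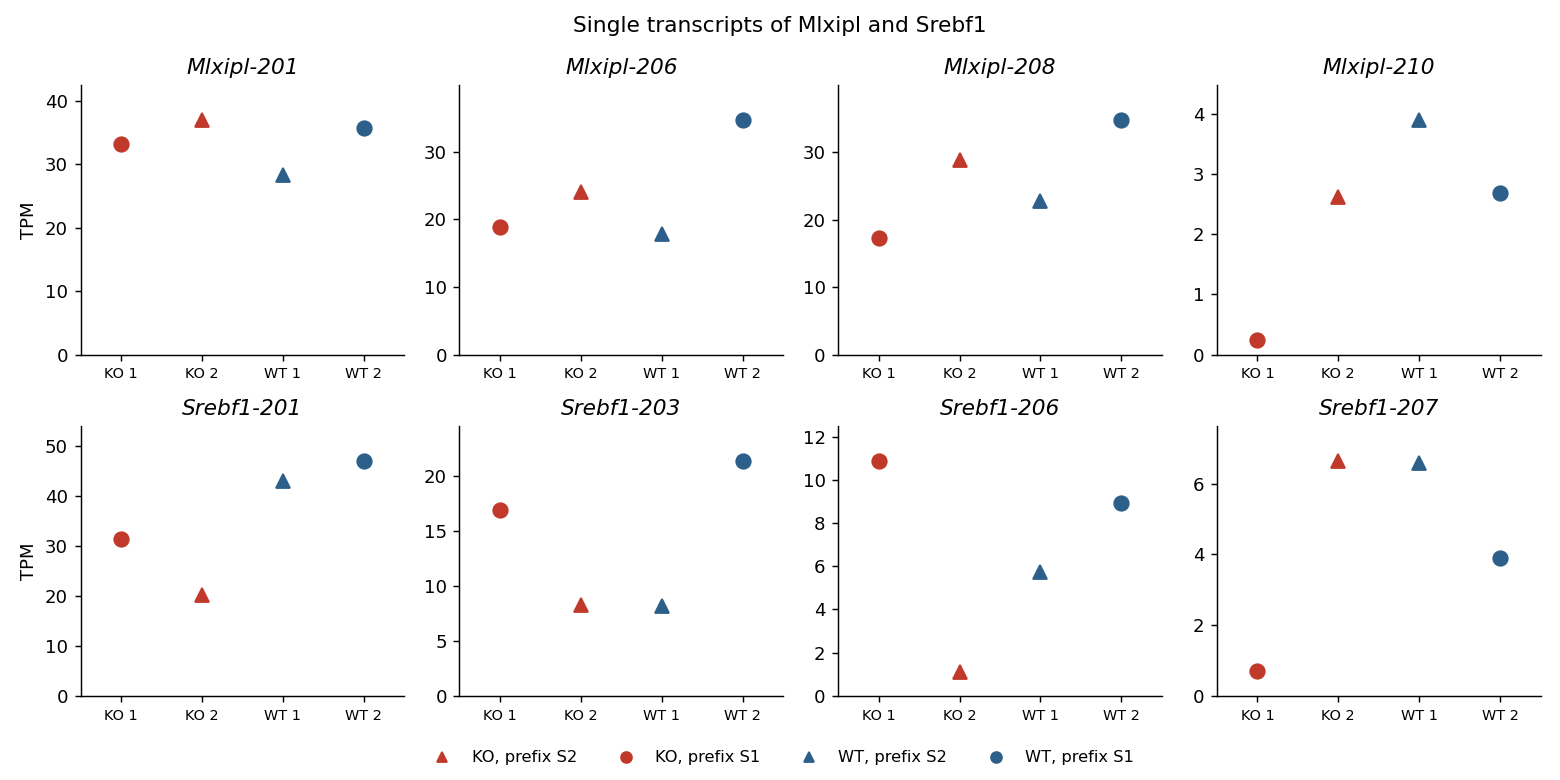
TPM of single Mlxipl transcripts (top) and Srebf1 transcripts (bottom) in each library, with KO libraries in red, WT libraries in blue, triangles for prefix S2 and circles for prefix S1. Mlxipl-210 and Srebf1-207 are lowest in KO 1, at 0.236 and 0.689 TPM, while Srebf1-201 is lowest in KO 2.

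The rest of the pathway was followed in 5 further lists. Of the other enzymes of fatty acid synthesis, elongation and desaturation, 12 of 13 were measured, 0 passed between KO and WT or between S2 and S1, and Olah was at 0. Scd1, the desaturase that turns stearate to oleate, was at 13824 and 18849 CPM in the S2 libraries KO 2 and WT 1, against 4531 and 7575 CPM in the S1 libraries KO 1 and WT 2. Its log2 fold change between S2 and S1 was 1.43 (SE 0.30, edgeR adjusted p = 0.277). With genotype as a block it rose by 1.46 (SE 0.28, edgeR adjusted p = 0.024). Scd1 was the 1 gene of the list to pass in that fit, where 3.14% of all genes did. Acsl1, which activates fatty acids, had 0.50 (SE 0.14) between S2 and S1 and Acss2, which makes acetyl-CoA from acetate, 0.59 (SE 0.21). Elovl5, an elongase of polyunsaturated fatty acids, had -0.34 (SE 0.14), with both S2 libraries below both S1 libraries. Elovl3, an elongase counted here among the brown fat markers, had -2.07 (SE 0.41, edgeR adjusted p = 0.277). The list's median was 0.09 between S2 and S1 and 0.02 between KO and WT.

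Of 20 genes that supply NADPH, pyruvate, acetyl-CoA and citrate, 18 were measured and 0 passed in either comparison. In this list 17 of the 18 had prefixes that did not overlap, against 53.2% of all genes, with a median log2 fold change of 0.42 between S2 and S1. Of the 18, 16 were lowest in KO 1, against 35.0% of all genes. Pdha1, a pyruvate dehydrogenase subunit, had a log2 fold change of 0.94 (SE 0.17), Tkt, of the pentose phosphate pathway, 0.91 (SE 0.16), Pcx, pyruvate carboxylase, 0.77 (SE 0.18) and Cs, citrate synthase, 0.71 (SE 0.12), each with an edgeR adjusted p of 0.277. Between KO and WT their values lay between -0.18 for Pcx and 0.04 for Tkt, and the list's median was -0.09.

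Among 12 further enzymes of triglyceride synthesis, all measured, 0 passed in either comparison. Agpat2, which acylates lysophosphatidate, had a log2 fold change of -0.44 (SE 0.13) and Mogat1, a monoacylglycerol acyltransferase, one of -0.72 (SE 0.22) between S2 and S1. Agpat1 had -0.31 (SE 0.12) and Agpat3, of the same family as Agpat2, 0.25 (SE 0.12). Signs were mixed in this list, with 7 of 12 above 0 and a median of 0.11 between S2 and S1, and the median between KO and WT was 0.02. Lpin1, a phosphatidate phosphatase, was at 111 and 153 CPM in KO 1 and KO 2, against 229 and 160 CPM in WT 1 and WT 2, a log2 fold change of -0.56 (SE 0.27, edgeR adjusted p = 0.9998) between KO and WT.

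Of 18 regulators of SREBP, ChREBP and LXR, 0 passed in the comparisons of KO with WT and of S2 with S1. Mid1ip1, a relative of Thrsp that binds acetyl-CoA carboxylase, was at 25.9 and 23.3 CPM in KO 1 and KO 2, against 47.3 and 38.7 CPM in WT 1 and WT 2. The groups did not overlap, as in 26.3% of all genes tested. Its log2 fold change was -0.81 (SE 0.19, edgeR adjusted p = 0.359, unadjusted p = 0.00545). Blocking on the prefix gave -0.80 (SE 0.16, edgeR adjusted p = 0.0332). Mid1ip1 was the 1 gene of the list to pass there, where 2.05% of all genes did. Insig2, which holds SREBP in the endoplasmic reticulum, had 0.41 (SE 0.11) and Akt2, a kinase of insulin signalling, 0.36 (SE 0.11) between S2 and S1. Nr1h3, the gene of LXR-alpha, had -0.33 (SE 0.13) and Stk11, the kinase LKB1 upstream of AMPK, -0.32 (SE 0.14), both with S2 below S1 in all libraries. The list's median was 0.13 between S2 and S1 and -0.01 between KO and WT. Of 8 other targets of ChREBP and SREBP-1, 7 were measured and 0 passed. Txnip, a glucose-responsive ChREBP target, had 0.44 (SE 0.11) between S2 and S1, at 1139.8 and 1131 CPM in KO 2 and WT 1, against 842 and 833 CPM in KO 1 and WT 2. Klf10, a glucose-responsive repressor, had -0.61 (SE 0.16), at 16.4 and 18.2 CPM in KO 2 and WT 1, against 29.7 and 23.2 CPM in KO 1 and WT 2. Gpd1, glycerol-3-phosphate dehydrogenase, had 0.51 (SE 0.19). The list's median was 0.27 between S2 and S1 and -0.17 between KO and WT.

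The genes most like the 10 were found by the distance between centred log2 CPM profiles over the 4 libraries. The median profile of the 10 was -0.47 in KO 1, 0.41 in KO 2, 0.16 in WT 1 and 0.01 in WT 2. Among genes other than the 10, the 5 nearest were Ptpn9 (distance 0.071), Slc35a5 (0.072), Vcl (0.088), Cdc27 (0.088) and Golph3 (0.088), all at 6.68 to 72.2 CPM. Members themselves lay farther from their median, from 0.34 for Thrsp and 0.40 for Me1 to 1.37 for Acly, so the median profile describes no single one of them closely. With 4 libraries such nearness is a description.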

How the data were processed

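RNA from brown adipose tissue was extracted with TRIzol and RNeasy and made into stranded mRNA libraries, per the labels' protocols. Per the submitters' processing notes, kallisto 0.45.0 and the build mm10 were used, and the sources used here name neither the transcript set nor the strand setting. The authors deposited an estimated count and a TPM value for each of 141450 transcripts per library, per the file headers. Transcripts were assigned to genes with GENCODE vM21 (GRCm38) by Ensembl identifier, which matched 97.7%. The unmatched transcripts held 0.992 to 1.04% of counts and were left out of the totals used for scaling and of every test. Gene values are sums over a gene's transcripts, and summed counts were rounded to whole numbers.

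The test was edgeR 4.0.16's quasi-likelihood test in R 4.3.3 with TMM scaling and filterByExpr (minimum count 10, minimum total 15), with genotype or the library name prefix as the sole term and all 4 libraries in each fit. The code was tested on simulated data. The p-values reflect only how these 4 libraries varied, which may be technical. Within-prefix differences are log2 CPM with a prior count of 2. Alternatives included DESeq2 1.42.0 and limma 3.58.1, the latter also on log2(TPM + 1). The 10 genes and the gene lists were chosen with earlier results of these data known. Named genes are the 10, Atf4, up to 4 genes with the smallest p per list and comparison, and the 5 nearest profiles with a mean log2 CPM of at least 3. Nnt has more than 1 annotated gene and was not used. Pklr is on 2 of the lists and did not pass the filter.

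Replicate numbers in the titles are shared by KO and WT. Deviations of same-numbered libraries from their group means were negatively correlated (-0.38 across genes), so the numbers were not taken to pair them. With 2 libraries per group, the 0.38 for same-prefix libraries is the same value with its sign reversed.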

Additional observations from a re-analysis of the deposited data

Results flagged for a closer look

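For 8 of the 10 lipogenesis genes the difference between KO and WT pointed one way within prefix S1 (KO 1 minus WT 2) and the other way within prefix S2 (KO 2 minus WT 1). Opposite signs were found for 48.1% of all genes tested. In log2 CPM the difference was -1.64 within S1 and 0.41 within S2 for Acly, -1.10 and 0.18 for Acaca, and -1.14 and 0.51 for Fasn. In the same order it was -0.69 and 0.44 for Me1, -0.43 and 0.68 for Slc25a1, -0.52 and 0.39 for Acacb, and -0.13 and 0.35 for Mlxipl. For Dgat2 it was 0.04 within S1 and -0.20 within S2. With 1 library of each genotype per prefix, these differences between prefixes were not tested.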

How the results depend on the processing

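Between KO and WT, 0 of the 10 lipogenesis genes passed in all 14 alternatives, while the count over all genes, 122, was 457 with no filter, 320 with the prefix as a block, 218 with DESeq2 and 78 to 205 with 1 library left out. Between S2 and S1, 0 of the 10 passed except for 5 with no filter, 2 with genotype as a block and 1 with DESeq2. Those fits tested 26873, 15643 and 15643 genes in turn. The count over all genes, 1, was 823, 491 and 548 in those fits, 0 with the replicate block, 0 with limma-voom and 0 to 1 with 1 library left out, beside 2417 genes at an unadjusted p under 0.05. With the replicate block, Fasn turned to -0.31 and Me1 to -0.12 between KO and WT, and with the prefix as a block, which is the crossed pairing of the numbers, the values were again -0.31 and -0.12. Limma-voom gave -0.33 for Fasn and -0.13 for Me1, and limma on log2(TPM + 1) gave -0.31 for Fasn, -0.34 for Me1, -0.062 for Mlxipl and -0.092 for Slc25a1, where the median of all genes was -0.07. The sole-term edgeR fit compares group means of scaled counts, which for Fasn were 7844 CPM in KO and 7225 CPM in WT. For Me1 they were 235.9 and 229.9 CPM. Limma averages logarithms, and a block fit compares libraries within blocks. Both block fits use the same libraries, so their near-equal values are not separate evidence. What turned Mlxipl and Slc25a1 on log2(TPM + 1) was not tested. With 1 library left out, KO over WT ranged from -1.96 to 0.67 for Acly, -1.59 to 0.55 for Acaca, -0.31 to 0.21 for Acacb, -1.65 to 0.89 for Fasn, -0.84 to 0.58 for Me1, -0.12 to 0.34 for Mlxipl, -0.39 to 0.023 for Thrsp, -0.58 to 0.82 for Slc25a1 and -0.32 to 0.15 for Dgat2. S2 over S1 ranged from -0.31 to 0.22 for Acacb. Srebf1 was negative between KO and WT in all 14 alternatives. DESeq2 size factors, the stricter filter and leaving out mitochondrially encoded or skeletal muscle genes changed no direction and no call among the 10. A library left alone in its arm was assumed to vary like the others.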

Other observations

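Single transcripts of other lipogenesis genes also differed between libraries. Acly-201 was at 0.191 and 141 TPM in KO 1 and KO 2, against 75.4 and 17.9 TPM in WT 1 and WT 2, and Acly-207 at 42.2 and 143 TPM in KO 1 and KO 2, against 111 and 130 TPM in WT 1 and WT 2. Acly-203 was at 14.7 and 123 TPM in KO 1 and KO 2, against 113 and 65.1 TPM in WT 1 and WT 2. Acly-205, a short non-coding transcript near the 3′ end, held 25.5% and 7.14% of Acly TPM in KO 1 and KO 2. In WT 1 and WT 2 it held 7.96% and 20.5%. Fasn-203, also near the 3′ end, held 53.6% and 28.5% of Fasn TPM in KO 1 and KO 2. In WT 1 and WT 2 it held 30.5% and 41.1%. Fasn-202, beside it, was lowest in KO 1, at 31.1%, against 38.1% in WT 1. Whether coverage along transcripts differed between libraries was not tested. Acaca-201, whose start lies 22316 bases downstream of that of Acaca-202, was at 30.3 and 168 TPM in KO 1 and KO 2, against 135 and 80.5 TPM in WT 1 and WT 2. Acaca-202 was at 4.65 and 7.81 TPM in KO 1 and KO 2, against 15.9 and 9.13 TPM in WT 1 and WT 2. These genes and transcripts were chosen after their values were seen.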
